A study of Mus musculus with 5 samples.

Results

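A set of 8 genes of no common family was picked for higher levels in distal forelimb buds without HOX13 function: Styk1, Hfm1, Elmod1, Ppp2r2c, Cytl1, Crhbp, Fbxo44 and Enpp2. They are 8 of the 23284 genes in the count tables, and they were chosen by their rise in the mutant libraries at E11.5, that is, by the mutant and wild-type counts of all 4 E11.5 libraries, so the mutant and wild-type values below are a description and carry no test. The measurements were 5 RNA libraries of mouse forelimb bud. Both E11.5 groups came from the micro-dissected distal part of the E11.5 forelimb, the region of the digits: 2 libraries from Hoxa13-/-;Hoxd13-/- embryos, called mutant here, and 2 from wild-type embryos, both labelled as a mixed C57BL/6 - CD1 background. The third group was 1 library of E10.5 forelimb bud, labelled CD1. In the mutant a neomycin cassette interrupts the Hoxa13 coding region and a lacZ reporter sits in the first exon of Hoxd13, so both genes are affected in every tissue of the embryo, not in the limb alone. Each E11.5 library is labelled as RNA from a pool of dissected tissue (N = 4), with 2 independent pools per genotype; what the 4 counts is not explained. Stage, dissected part and strain label all differ between the E10.5 library and the others and cannot be told apart. Whether the mutant and wild-type pools differed in their share of either strain within the mixed background was not tested.

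HOX13 proteins are homeodomain transcription factors of the most distal limb, where they are needed for digit formation and where they take over from the HOX proteins of the early bud. Mice that lack both genes form no digits. The 8 genes have different roles. CYTL1, CRHBP and ENPP2 are secreted: CYTL1 is a small cytokine-like protein known from cartilage, CRHBP binds corticotropin-releasing hormone outside cells, and ENPP2 (autotaxin) makes the lipid signal lysophosphatidic acid. STYK1 is a membrane-bound kinase-like protein, PPP2R2C is a regulatory subunit of protein phosphatase 2A, ELMOD1 is a GTPase-activating protein for ARF-family GTPases, and FBXO44 is a substrate-recognition subunit of an SCF ubiquitin ligase. HFM1 is a DNA helicase needed for crossover formation in meiosis.

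Promoter sequence was held for 5 of the 8 genes in the RefSeq table of build GRCm38.p6, as windows from 250 bases before to 50 bases after an annotated start. The 4 printed here belong to the genes whose E10.5 level lay at least 2-fold above wild type (Hfm1, Ppp2r2c and Crhbp) or at least 2-fold below it (Cytl1), as given further on. Capitals mark CpG dinucleotides, and each window is 300 bases long and reads 5′ to 3′ on the strand of the gene.
Hfm1, chr5:106925841-106926140, minus strand: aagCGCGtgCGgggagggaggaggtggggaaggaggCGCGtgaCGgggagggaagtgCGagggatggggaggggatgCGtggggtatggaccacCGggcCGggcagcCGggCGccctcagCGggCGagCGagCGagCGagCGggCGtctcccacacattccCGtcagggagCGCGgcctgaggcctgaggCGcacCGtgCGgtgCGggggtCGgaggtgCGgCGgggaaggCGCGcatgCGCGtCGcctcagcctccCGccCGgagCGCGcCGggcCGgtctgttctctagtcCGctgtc
Ppp2r2c, chr5:36868260-36868559, plus strand: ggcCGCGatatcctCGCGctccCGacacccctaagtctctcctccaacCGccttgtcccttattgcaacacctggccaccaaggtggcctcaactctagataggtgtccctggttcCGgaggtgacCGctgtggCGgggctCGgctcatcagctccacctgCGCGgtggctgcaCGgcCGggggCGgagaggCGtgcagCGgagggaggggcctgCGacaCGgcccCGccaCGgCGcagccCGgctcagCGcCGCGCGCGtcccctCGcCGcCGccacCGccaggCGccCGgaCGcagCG
Crhbp, chr13:95444782-95445081, minus strand: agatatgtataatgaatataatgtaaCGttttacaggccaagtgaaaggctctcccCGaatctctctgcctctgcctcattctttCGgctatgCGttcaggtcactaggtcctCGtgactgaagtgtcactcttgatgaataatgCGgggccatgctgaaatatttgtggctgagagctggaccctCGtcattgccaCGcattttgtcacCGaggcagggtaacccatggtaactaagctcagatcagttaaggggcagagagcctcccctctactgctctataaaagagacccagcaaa
Cytl1, chr5:37735269-37735568, plus strand: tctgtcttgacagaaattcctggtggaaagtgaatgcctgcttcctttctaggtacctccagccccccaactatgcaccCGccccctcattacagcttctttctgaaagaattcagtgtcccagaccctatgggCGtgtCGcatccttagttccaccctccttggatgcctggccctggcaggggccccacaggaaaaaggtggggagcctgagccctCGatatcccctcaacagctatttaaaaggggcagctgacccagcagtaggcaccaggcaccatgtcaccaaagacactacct
The windows were of different kinds. Those of Hfm1 and Ppp2r2c were rich in CpG, with 41 and 36 of these dinucleotides against a median of 7 over 32851 promoters of this length, and with a GC content of 75.3% and 72.7%. Cytl1 had 4 CpG dinucleotides at 55% GC and Crhbp had 9 at 48% GC. Fbxo44 had 3 annotated windows, with 21, 9 and 22 CpG dinucleotides. A TATAAA sequence, counted on both strands, stood in the Crhbp window at base 281, after the annotated start, and in 13.6% of all promoters. The letters TCGTAAA and CAATAAA, which HOX13 proteins are known to bind, were searched on both strands, and neither was found in any of the 7 windows of the 5 genes. They occur in 0.597% and 4.6% of all promoters, and their absence says only that these letters are not in these windows.

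Reads counted in genes totalled between 45115494 and 84172202 per library, and 18039 to 18415 genes had a count. Levels are given as CPM (the reads of a gene scaled to a common library size), with library sizes adjusted by the trimmed mean of M values (TMM). Hoxd13 measured 45.9 and 38.2 CPM in the mutant libraries and 237 and 243 CPM in wild type, while Hoxa13, whose transcript is interrupted but not removed, measured 46.2 and 38.1 CPM against 48.9 and 46.6 CPM and so does not check the labels. The limb markers Prrx1 (471 to 708 CPM) and Tbx5, the forelimb gene (76.8 to 97.0 CPM), were present in every library. Of 10 tested genes of limb mesenchyme 6 fell, beside 3.34% of all genes tested, and 1, Prrx1, rose; without mutant replicate 2 the number that fell was 2, and Prrx2, Twist1, Lhx9 and Hand2 did not pass. Of the hindlimb markers, Pitx1 lay between 0 and 0.384 CPM, but Tbx4 was present in every library. Tbx4 measured 6.66 CPM at E10.5, 10.04 and 8.51 CPM in the mutant and 7.97 and 7.59 CPM in wild type. Among markers of other cell types, the summed level of 12 neuron and Schwann cell genes was 40.6 and 44.3 CPM in the mutant against 68.8 and 69.4 CPM in wild type. That of 10 macrophage genes was 79.4 and 76.4 against 50.4 and 66.2 CPM, and that of 10 erythroid genes was 2957 and 2889 against 2356 and 2324 CPM. At E10.5 the same sums were 34.7, 18.3 and 3975 CPM. Whether any of the 8 genes followed these cell types was not tested, and in whole tissue a change in the number of cells of a type and a change in the RNA per cell cannot be told apart.

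The secreted proteins were low or moderate in wild-type distal buds. Cytl1 had 0.234 and 0.300 CPM in the wild-type libraries and 3.36 and 2.35 CPM in the mutant libraries. Both mutant libraries were above both wild-type libraries. For 49.5% of all genes tested the mutant and wild-type libraries did not overlap, in one direction or the other. Nothing is therefore read from a lack of overlap, here or below. For Cytl1 the difference came to a log2 fold change of 3.41 (SE 0.35). The counts behind it were 11 and 17 against 209 and 119 reads. Crhbp measured 0.298 and 0.794 CPM in wild type and 5.20 and 3.96 CPM in the mutant. The wild-type libraries differed 2.66-fold from each other, less than the gap to the lower mutant library, and the log2 fold change was 3.03 (SE 0.36). Enpp2 measured 12.7 and 14.8 CPM in wild type and 30.0 and 27.1 CPM in the mutant. Its log2 fold change of 1.06 (SE 0.12) was the smallest of the 8 and placed it 233rd among the 617 genes that rose, so the description as strongly risen does not hold for it by size. In the GENCODE M21 annotation 345 bases of Enpp2 exons overlap Gm26684 on the opposite strand. The libraries are labelled as stranded, but no source states whether reads were counted by strand, so reads of both genes may not be separated there.

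The kinase-like protein, the phosphatase subunit, the GTPase regulator and the F-box protein had wild-type levels near or below 1 CPM. Styk1 had 2 reads and 0 reads in the wild-type libraries against 281 and 269 reads in the mutant libraries, or 0.0426 and 0 CPM against 4.52 and 5.32 CPM. The count of 0 allows a level of up to 0.053 CPM. Mutant and wild-type libraries did not overlap, as in 49.5% of all genes tested. Styk1 stood 3rd by log2 fold change among the genes that rose. The ratio of mutant to wild-type level was 253, with an exact 95% interval of 69.6 to 2092 that covers counting error only. Ppp2r2c measured 0.384 and 0.212 CPM in wild type and 3.54 and 2.77 CPM in the mutant, with no overlap and a log2 fold change of 3.43 (SE 0.34). Elmod1 had 1.04 and 1.29 CPM in wild type and 12.004 and 10.2 CPM in the mutant. Replicates lay close together on both sides, and the log2 fold change was 3.25 (SE 0.20). Fbxo44 measured 0.469 and 0.812 CPM in wild type and 5.36 and 5.03 CPM in the mutant (log2 fold change 3.001, SE 0.28), again with every mutant library above every wild-type one.

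The meiotic helicase gene Hfm1 had 0.959 and 1.09 CPM in wild type and 10.7 and 12.7 CPM in the mutant. Its log2 fold change of 3.50 (SE 0.20) came with 45 and 62 reads in wild type and 662 and 640 reads in the mutant. The libraries of each genotype lay close together and far from those of the other. Levels were compared between genes per length, on merged exon lengths of GENCODE M21. Mean mutant levels were then highest for Enpp2, at 4.94 CPM per kilobase. On this scale Hfm1 had 1.74, Elmod1 2.50, Cytl1 2.71, Crhbp 2.54 and Fbxo44 1.72, and the lowest levels were those of Styk1 (0.839) and Ppp2r2c (0.709). All 8 genes passed the low-count filter and the test used to choose them, beside 3.82% of all 16166 genes tested that rose and 3.34% that fell; since that contrast chose them, nothing is read from the count. The Enpp2 rank apart, the genes stood between the 3rd and the 36th place by log2 fold change among those that rose.

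**Figure D1:**
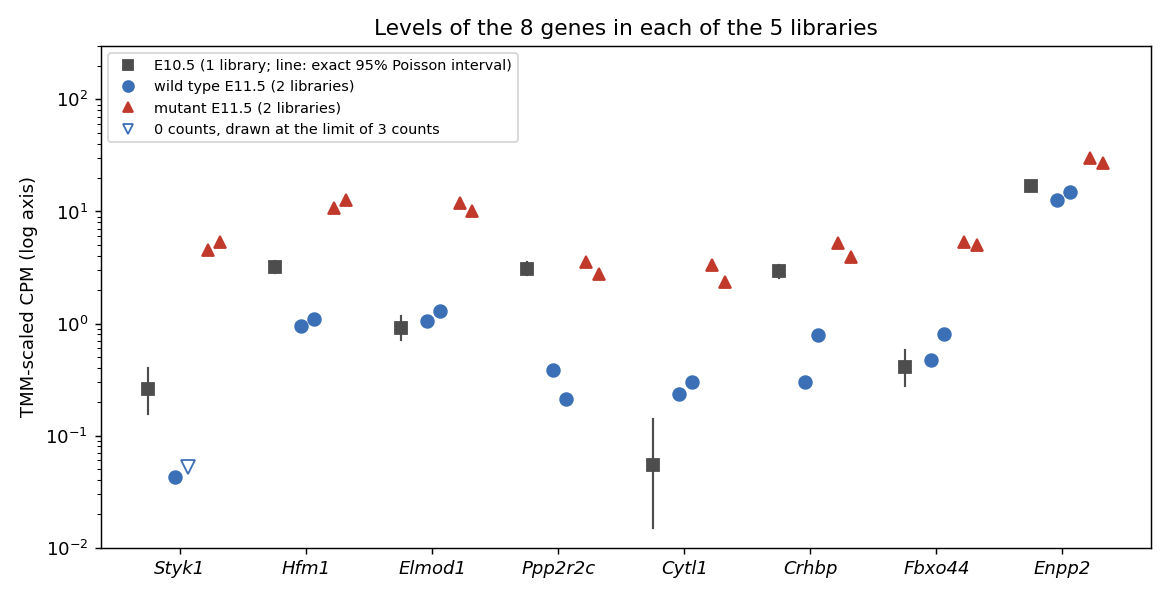
TMM-scaled CPM (log axis) of each of the 8 genes in the 5 libraries, with squares for E10.5, circles for wild type and triangles for mutant; lines on the squares are exact 95% Poisson intervals, and an open marker stands for a count of 0. Mutant values lie above wild-type values for every gene, the contrast that chose them. Over all genes tested, 49.5% had no overlap between the genotypes, higher or lower. The E10.5 value runs from 0.0545 CPM for Cytl1 to 16.7 CPM for Enpp2 and changes its place relative to wild type from gene to gene.

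Against their E10.5 level the 8 genes divided. Styk1, Hfm1, Ppp2r2c and Crhbp, 4 of the 8, had at least 2-fold more RNA in the E10.5 bud than in either wild-type E11.5 library. Of 16738 genes, 3.86% reached this distance. The choice of the 8 favoured genes low in wild type, so nothing is read from the 4 of 8 beside this share. Cytl1 alone of the 8 was at least 2-fold lower at E10.5 than in either wild-type library, as were 12.9% of all genes. Elmod1, Fbxo44 and Enpp2 stayed within 2-fold of both wild-type libraries. For Fbxo44 this was narrow, since its E10.5 level minus that of wild-type replicate 2 was -0.93 on the log2 scale. There is 1 library at E10.5, so these differences have no test. Leaving out a wild-type library could only add genes to the counts of 4 and 1, because the call asks for the distance from every library kept. It added none, and it could not show a loss. Whether both stages were counted on the same gene models was not tested.

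Ppp2r2c measured 3.08 CPM at E10.5 (exact 95% Poisson interval 2.69 to 3.51, counting error only), between the mutant libraries and 3.28 above the wild-type mean on the log2 scale. That E10.5 value lay within 0.20 log2 units of either mutant library. Crhbp measured 2.91 CPM at E10.5 (2.54 to 3.33), which was 2.49 above the wild-type mean and 0.63 below the mutant mean on the log2 scale. Hfm1, with 3.20 CPM at E10.5 (2.80 to 3.64), stood between the genotypes, 1.61 above the wild-type mean and 1.85 below the mutant mean. Styk1 was rare at E10.5 as well: its 19 reads gave 0.259 CPM (0.156 to 0.404). The E10.5 level was 13.4 times the summed wild-type level, with an exact interval of 3.23 to 119 because wild type had 2 reads, and the mutant level was 18.9 times that of E10.5 (interval 11.96 to 31.6).

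The other 4 genes were not 2-fold above wild type at E10.5. Enpp2 measured 16.7 CPM at E10.5 (15.8 to 17.7), 0.28 above the wild-type mean and 0.77 below the mutant mean on the log2 scale. Elmod1 had 0.913 CPM at E10.5 (0.707 to 1.16), which was 0.34 below the wild-type mean. Fbxo44 had 0.409 CPM (0.276 to 0.583), 0.56 below the wild-type mean. Both were at least 2-fold below either mutant library, with log2 differences of -3.55 and -3.56 from the mutant mean. Cytl1 had 4 reads and 0.0545 CPM (0.0148 to 0.139). Its E10.5 level minus the wild-type mean was -1.75 on the log2 scale, and minus the mutant mean it was -5.0005. In all, 5 of the 8 genes (Styk1, Hfm1, Elmod1, Cytl1 and Fbxo44) were at least 2-fold lower at E10.5 than in either mutant library. Over all genes this share was 14.5%. None of the 8 was at least 2-fold higher, beside 4.13% of all genes. The choice of the 8 favoured genes high in the mutant libraries, so nothing is read from these counts. The comparisons of E10.5 with wild type and of mutant with wild type share the wild-type libraries, so their values are set side by side and not combined.

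**Figure D2:**
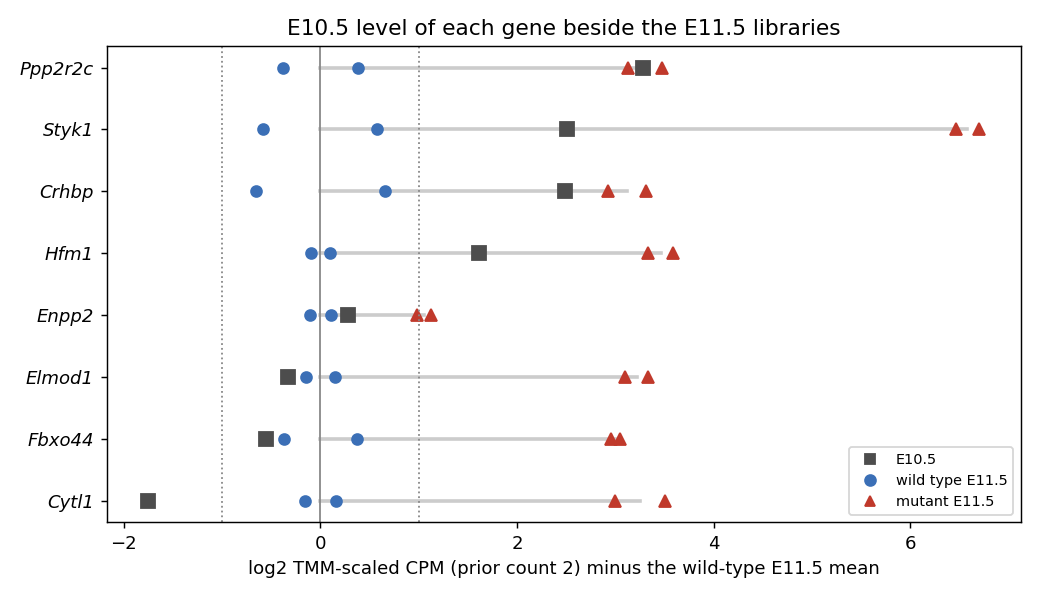
Each library's log2 TMM-scaled CPM (prior count 2) minus the wild-type E11.5 mean, with squares for E10.5, circles for wild type and triangles for mutant; the grey bar spans the wild-type and mutant means and dotted lines mark a 2-fold difference. The E10.5 square of Ppp2r2c falls among the mutant triangles (3.28), those of Styk1, Crhbp and Hfm1 lie between the genotypes (2.51, 2.49 and 1.61), and that of Cytl1 lies below wild type (-1.75).

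The 8 genes also differed in how tightly the libraries fixed their fold change. With each E11.5 library left out in turn the log2 fold change ranged from 3.38 to 3.63 for Hfm1, from 3.10 to 3.43 for Elmod1, from 3.13 to 3.64 for Cytl1 and from 0.95 to 1.18 for Enpp2. The wider ranges were 3.05 to 3.88 for Ppp2r2c, 2.67 to 3.48 for Fbxo44 and 2.52 to 3.95 for Crhbp. For Crhbp and Fbxo44 the highest value came without wild-type replicate 2 and the lowest without the other wild-type library, and for Ppp2r2c the order was the opposite. For Styk1 the value was 6.79 without wild-type replicate 2. When the other wild-type library was left out, no wild-type read remained and the fitted value has no meaning as a size. In the mutant libraries themselves the level of Cytl1 was 1.43 times higher in replicate 1 than in replicate 2, that of Crhbp 1.31 times and that of Ppp2r2c 1.28 times, whereas Styk1 and Hfm1 had ratios of 0.850 and 0.841.

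**Figure D3:**
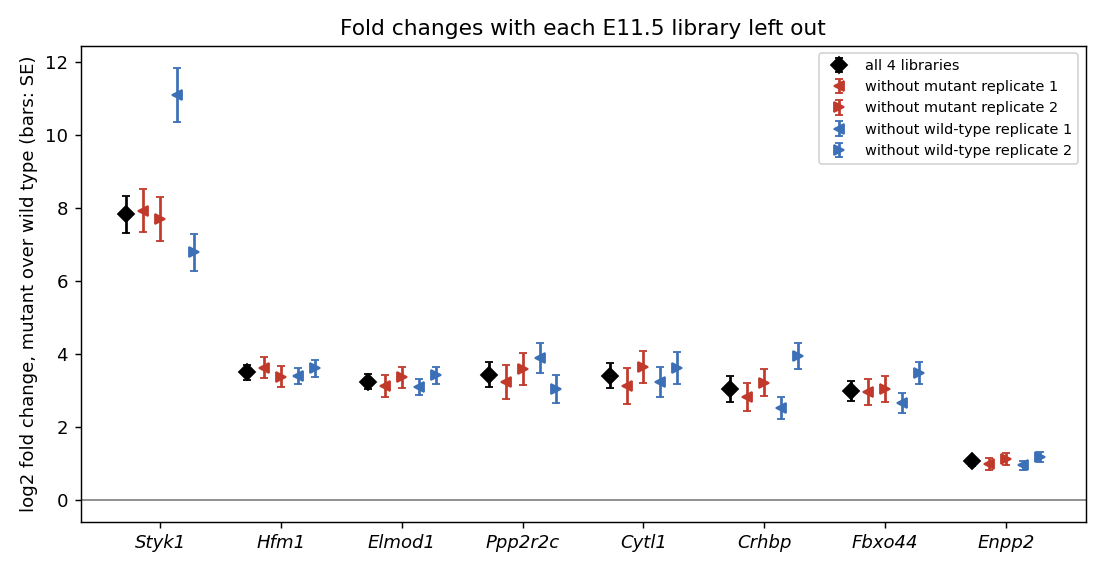
log2 fold change (mutant over wild type) with its SE for each of the 8 genes in the fit of all 4 E11.5 libraries (diamonds) and with each library left out (triangles, coloured by the genotype of the library left out). Every value lies above 0, but the same libraries chose the genes, so nothing is read from that. Crhbp moves between 2.52 and 3.95 with the wild-type libraries. The highest Styk1 point comes from a fit with no wild-type read and is no measure of size.

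The known partners and relatives of the 8 genes were set beside them, with the germ cell markers apart. Of 137 tested genes in 8 lists of partners and families, 6 rose and 6 fell, or 8.76%, beside 7.16% of all genes tested that changed in either direction. The median log2 fold change of these genes was -0.01, beside -0.0008 over all genes. All adjusted p-values come from the edgeR quasi-likelihood test, with the Benjamini-Hochberg method applied to every tested gene.

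Hfm1 acts with the MutS proteins of meiosis, and Msh4 and Msh5, which encode them, had log2 fold changes of 0.34 and 0.28 (adjusted p = 0.659 and 0.614). Among 21 tested genes of meiotic recombination and synapsis, 2 rose and 1 fell, with a median of 0.21. Without wild-type replicate 1, 4 rose and 1 fell. Rec8, the meiotic cohesin, rose from 1.36 and 1.47 CPM in wild type to 3.33 and 3.32 CPM in the mutant (log2 fold change 1.24, SE 0.23, adjusted p = 0.00682). Syce2, a protein of the synaptonemal complex, rose by 0.59 (adjusted p = 0.00585). Its relative Syce1 fell by 2.14 from 0.980 and 0.812 CPM to 0.0965 and 0.317 CPM (adjusted p = 0.0266, and 0.180 without mutant replicate 1). The germ cell genes Ddx4 and Dazl were at most 0.980 and 0.128 CPM in any library, and the sum of 8 germ cell markers was 3.65 and 4.57 CPM in the mutant against 6.16 and 4.78 CPM in wild type. Of the 4 tested, Pou5f1, the pluripotency and germ cell gene, fell by 1.57 (adjusted p = 0.0449) and did not pass with any one library left out (0.0529 to 0.269), by DESeq2 (0.113) or with the replicate block (0.0714).

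Among 25 tested genes of protein phosphatase 2A, 0 rose and 0 fell by the edgeR test; by DESeq2 0 were called, and 5 had an unadjusted p below 0.05. Without wild-type replicate 1 the count was 3. The sister subunits of PPP2R2C had log2 fold changes of -0.0002 for Ppp2r2a, -0.85 for Ppp2r2b and 0.03 for Ppp2r2d. Ppp2r2b, the second low member of this family, missed the threshold (adjusted p = 0.0512) with 2.94 and 3.48 CPM in wild type against 1.63 and 1.92 CPM in the mutant, so the values of Ppp2r2b and Ppp2r2c moved in opposite directions. Elmod2, the nearest relative of Elmod1, had 0.02 (adjusted p = 0.946). Of 20 genes of ELMO proteins and ARF-family GTPases, the small GTPase gene Arf6 rose by 0.34 (adjusted p = 0.0391) and the tubulin cofactor gene Tbcd fell by 0.34 (adjusted p = 0.0428). Neither passed with either mutant library left out (0.133 to 0.348), Arf6 also not without wild-type replicate 1 (0.0631) and Tbcd not without wild-type replicate 2 (0.0890). Fbxo6, which lies beside Fbxo44 and encodes a related F-box protein, measured 5.26 and 5.88 CPM in wild type and 6.11 and 6.61 CPM in the mutant (0.20, adjusted p = 0.604). Fbxo2, on the other side, was at most 0.128 CPM in any library and was not tested. Of 13 tested genes of the SCF ligase 0 rose and 0 fell by edgeR and 0 were called by DESeq2; 1 had an unadjusted p below 0.05, and 1 was called without wild-type replicate 1.

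For the secreted proteins, the ligands and receptors were compared. CRHBP's ligands were near 0: Crh was at most 0.0322 CPM and Ucn, which encodes urocortin, at most 0.0396 CPM. The receptor gene Crhr2 had no count in any library, and Crhr1 measured 2.01 and 1.74 CPM in the mutant against 1.32 and 1.08 CPM in wild type (0.66, adjusted p = 0.205). The single gene of this list that rose was Hsd11b2, whose enzyme inactivates glucocorticoids, from 6.69 and 5.53 CPM to 13.2 and 12.1 CPM (1.06, SE 0.15, adjusted p = 0.000985). The number that rose was 2 when wild-type replicate 1 was left out. The E10.5 level of Hsd11b2 was 31.8 CPM, above both genotypes at E11.5. None of the 6 tested receptor genes of the lipid that ENPP2 makes passed the edgeR test. Lpar1, at 262 to 331 CPM over the 5 libraries, had 0.19 (adjusted p = 0.320), Lpar4 0.05 (0.839) and Lpar6 0.08 (0.728), while Lpar3 and Lpar5 were at most 0.554 and 0.247 CPM in any library. Of the 19 tested genes of this lipid pathway and the ENPP family 0 rose and 2 fell, both relatives of Enpp2. Enpp1, which makes pyrophosphate outside cells, had 6.65 and 7.48 CPM in wild type and 3.14 and 2.77 CPM in the mutant (-1.25, SE 0.19, adjusted p = 0.00131), and Enpp4 had 12.1 and 12.8 CPM against 5.84 and 6.19 CPM (-1.04, SE 0.14, adjusted p = 0.000717). Enpp3, Enpp5 and Enpp6 had -0.06, 0.31 and 0.38 and did not pass.

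Cytl1 is known from cartilage, and 18 tested genes of early cartilage had a median of 0.19, with 1 risen and 2 fallen. The balance of directions in this list differed between fits. Without the filter on low counts 3 rose and 2 fell, and with the replicate block 2 rose and 2 fell. It also shifted with wild-type replicate 1 left out. The summed level of the 18 genes was 1352 and 1364 CPM in the mutant against 1129 and 1132 CPM in wild type and 740 CPM at E10.5. The largest part of it in every library was Trps1, which did not pass (adjusted p = 0.144). Trps1 had 482 and 521 CPM in the mutant against 417 and 436 CPM in wild type, so the sum does not stand for the list as a whole. Whether Cytl1 followed this sum was not tested. Col9a1, a cartilage collagen, rose by 0.45 (adjusted p = 0.0345, and 0.0544 without mutant replicate 1). The matrix gene Matn4 fell by 0.88 (adjusted p = 0.0258) and the transcription factor gene Nkx3-2 fell by 3.702 (adjusted p = 0.000962). Matn4 did not pass without mutant replicate 1 (0.110) or wild-type replicate 1 (0.0535). In the list of receptor kinases and AKT-GSK3 signalling set beside Styk1, 1 of 14 genes rose and 0 fell: Mertk, a receptor kinase of cell clearance, measured 54.9 and 58.6 CPM in wild type and 91.5 and 84.0 CPM in the mutant (0.64, SE 0.09, adjusted p = 0.00117). Leaving out either wild-type library gave 2 called genes in this list.

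**Figure D4:**
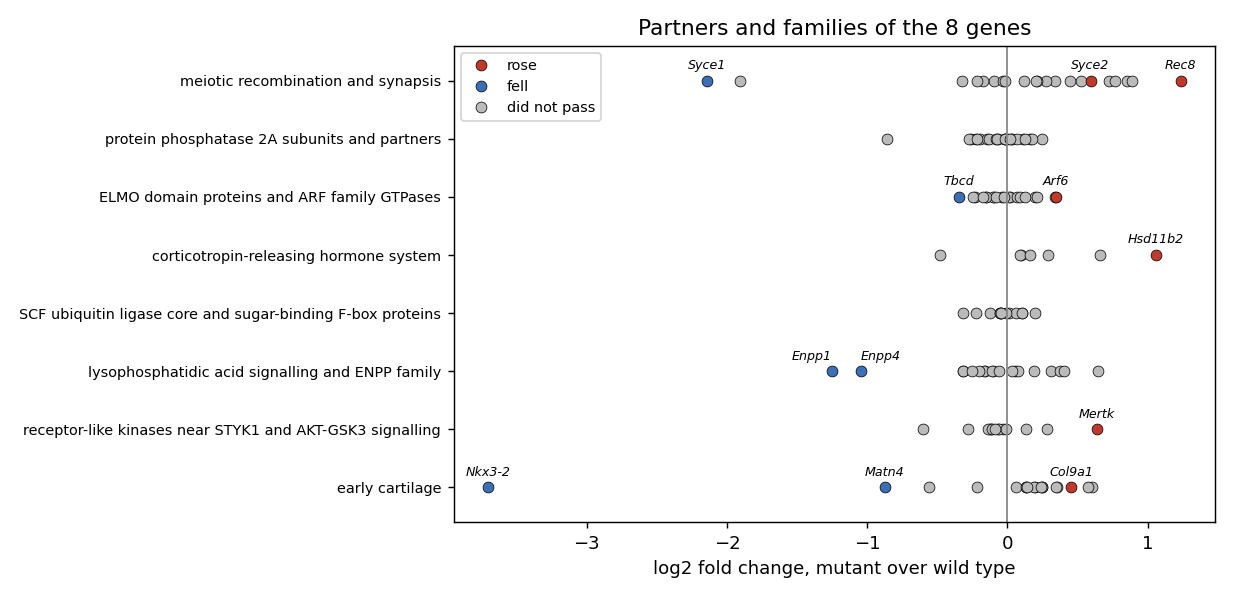
log2 fold change (mutant over wild type) of every tested gene in the 8 lists of partners and families, one point a gene, red for those that rose, blue for those that fell and grey for those that did not pass. The protein phosphatase 2A and SCF rows hold grey points only, and the ENPP row has Enpp1 (-1.25) and Enpp4 (-1.04) on the fallen side.

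The surroundings of the 8 genes in the genome were compared next, by gene order in the RefSeq table of GRCm38.p6. Taking the nearest 3 genes with a row in the count tables on each side gave 48 neighbours, of which 36 were tested. Of these 2 rose and 4 fell, or 16.7%, beside 7.16% of all genes tested. Among those that fell, Evc, Msx1 and Msx1as are all neighbours of Cytl1, so the calls are not separate and nothing is read from the share. The gene order sets no limit on distance: Zfp326, counted for Hfm1, lay 924.4 kb away. No neighbour of Styk1, Ppp2r2c, Crhbp or Enpp2 passed the test. Magohb and Csda, on either side of Styk1, had log2 fold changes of 0.12 and 0.01. Ppp2r2c and Cytl1 lie in one stretch of chromosome 5 with 7 listed genes between them, and the far side of Cytl1 is taken by Msx1, a homeobox gene of the limb mesenchyme that responds to BMP. Msx1 fell from 42.6 and 40.04 CPM to 24.7 and 21.1 CPM (-0.84, SE 0.11, adjusted p = 0.000471), in the opposite direction to Cytl1. Its antisense gene Msx1as had -0.85 (adjusted p = 0.000899), a value that is uncertain because reads of the 2 strands may not be separated. Evc, a ciliary gene of skeletal growth on the near side, fell by 0.43 (adjusted p = 0.0141, but 0.0863 and 0.107 without mutant replicate 1 and 2), and Stk32b and Evc2, between Evc and Cytl1, had 0.37 and 0.05 and did not pass.

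Near Elmod1 the transporter gene Slc35f2 rose from 9.85 and 10.6 CPM to 23.5 and 21.8 CPM (1.15, SE 0.12, adjusted p = 0.000116). Sln, which lies between Slc35f2 and Elmod1, had 0.12 (adjusted p = 0.939). Tgfbr3, a co-receptor for TGF-beta ligands and the second gene beyond Hfm1, rose from 21.996 and 24.8 CPM to 35.3 and 33.2 CPM (0.56, SE 0.11, adjusted p = 0.00814), with Cdc7 between them at 0.08. On the Fbxo44 side, 2610109H07Rik, whose current name is Draxin and which encodes an axon guidance protein, fell from 18.5 and 16.2 CPM to 7.32 and 6.98 CPM (-1.27, SE 0.13, adjusted p = 0.000123).

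**Figure D5:**
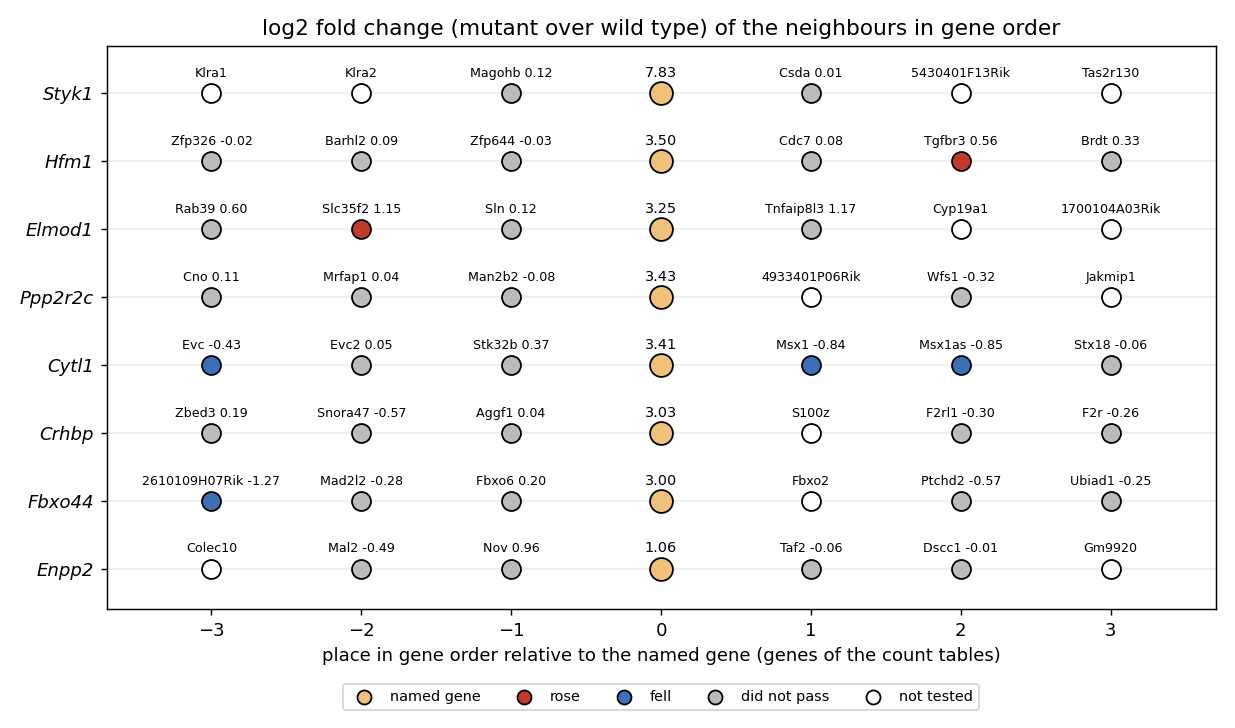
log2 fold change (mutant over wild type) of the 3 genes on each side of each of the 8 genes in gene order, coloured by the test; the axis gives the place in the order and not a distance. The row of Cytl1 (3.41) has blue points at Evc, Msx1 and Msx1as, and the rows of Styk1, Ppp2r2c, Crhbp and Enpp2 have no coloured neighbour.

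Likeness of pattern was measured as the Euclidean distance between log2 levels centred over the 5 libraries, a description over 5 points that share their libraries. Within the 8 genes Elmod1 and Fbxo44 were the closest pair (distance 0.41), and Styk1 and Enpp2 the farthest apart (5.64). Outside them, the nearest gene to Fbxo44 was T, the T-box gene of the early mesoderm (0.54), with 1.09 and 1.25 CPM in wild type, 7.58 and 7.36 CPM in the mutant and 0.640 CPM at E10.5. The nearest to Enpp2 was Rcsd1 (0.15), with 10.6 and 11.03 CPM in wild type, 24.4 and 22.6 CPM in the mutant and 14.2 CPM at E10.5. For Cytl1 it was Cacna1e, a calcium channel gene (0.85), which had 4.11 and 4.01 CPM in wild type, 26.4 and 26.5 CPM in the mutant and 1.40 CPM at E10.5. Pou4f1, a transcription factor gene of sensory neurons, was nearest to Crhbp (1.01), at 0.128 and 0.247 CPM in wild type, 1.54 and 0.930 CPM in the mutant and 1.65 CPM at E10.5. Rbm44 was nearest to Styk1 but at a distance of 2.40, with 0 CPM at E10.5 where Styk1 had 19 reads. The nearest genes to Hfm1 (Xlr4a, 0.53), Elmod1 (Tnfrsf9, 0.58) and Ppp2r2c (Kcnj12, 0.62) were below 1 CPM in every library, so their patterns rest on few reads.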

How the data were processed

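HTSeq, SAMtools, Cufflinks 2.1.1 and TopHat2 2.0.13 are named in the submitters' processing notes, with the genome mm9. Total RNA was depleted of ribosomal RNA, per the labels' protocols, and stranded libraries were made with 8 cycles of PCR and read for 50 cycles from both ends. The deposited values are whole-number counts of reads per gene, made by the authors; the sources used here do not give the annotation or strand option. Each table had 23284 gene symbols and 5 HTSeq total lines, which were left out. Reads assigned to no feature were 24.3% to 39.6% of the sum of all lines.

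Mutant was compared with wild type on the 4 E11.5 libraries with genotype as the only term: filterByExpr (minimum count 10, minimum total 15), TMM and edgeR 4.0.16 under R 4.3.3, with its quasi-likelihood test (older estimate), with Benjamini-Hochberg adjustment over 16166 genes; rose and fell mean an adjusted p below 0.05. The SE of a log2 fold change is its size over the square root of F. DESeq2 1.42.0 was an alternative. The script was tested on simulated data. E10.5 has 1 library, so a gene counted as higher or lower at 2-fold from both libraries of a genotype on log2 CPM with prior count 2. The p-values measure the spread between separate pools. A chi-square comparison of the counts showed replicates of both genotypes differing by more than sampling noise. The chi-square per degree of freedom was 12.5 between the mutant replicates and 29.9 between the wild-type replicates. Intervals and limits for a count of 0 (3 counts) cover counting error only.

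Named genes were the 8, the targeted genes, listed partners and paralogues, up to 4 called genes per list, and the nearest gene by pattern. The members and lists were chosen with earlier results of these data known. Gene names were matched to RefSeq GRCm38.p6 (20683 current, 2355 older, 246 unmatched), and gene coordinates are not printed other than those of the RefSeq promoters, because that build differs from mm9. Promoters of Styk1, Elmod1 and Enpp2 were not used here. Exon lengths are those of GENCODE M21.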

Additional observations from a re-analysis of the deposited data

How the results depend on the processing

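The number of genes that changed between mutant and wild type was 1157, with 1762 without a filter on low counts. Leaving out each E11.5 library gave 796 to 2018, the highest without wild-type replicate 1. The count among genes of the partner and family lists was 12, with 22 without the filter and 10 to 23 with each library left out, the highest again without wild-type replicate 1. The cause of these rises was not tested. Without the filter the meiotic list had 7 called genes in place of 3 and the cartilage list 5 in place of 3. The neighbour count was 5 to 7 in the same fits. All 8 genes stayed above wild type in every fit, but the same libraries chose them, so nothing is read from that. With one wild-type library left out, the log2 fold change of Crhbp was 2.52 or 3.95, that of Fbxo44 2.67 or 3.48, and that of Styk1 6.79 or, where no wild-type read was left, 11.12. The replicate numbers share only a number: over genes, the difference between replicates 1 and 2 of the mutant correlated with that of wild type at -0.07. With the replicate block 1252 genes changed, of which 1088 were among the 1157, and 13 list genes and 6 neighbours; of the named genes it ended the call of Pou5f1.

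Scaling to total counts lowered the E10.5 levels, since the E10.5 library has a TMM factor of 0.872. Under that scaling 412 genes were at least 2-fold above and 2640 below wild type at E10.5, against 646 and 2155; for the mutant the numbers were 401 and 3065 against 691 and 2435. The number of the 8 genes in each class was the same with that scaling and with a prior count of 0.5, and the nearest gene by pattern was the same for all 8. Depth limits Styk1, Cytl1 and Ppp2r2c, with 2, 28 and 30 wild-type reads in all.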

Other observations

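Of the phosphatase genes, Ppp2r3d was listed at 658 reads (8.96 CPM) at E10.5 and at 0 in all 4 E11.5 libraries. After this was seen, the tables were searched for others. There were 12 genes with at least 5 CPM at E10.5 and 0 reads in every E11.5 library, among them the vesicle genes Mia3 and Vamp7. In the other direction 2 genes, 1700025N23Rik and Ube1y1, had at least 5 CPM in each E11.5 library and 0 reads at E10.5. Whether the 2 stages were counted on the same gene models, or differed in the sex of the embryos, was not tested. All 8 genes described above had reads at both stages.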
